A study of Gallus gallus with 6 samples.

Results

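Long intergenic non-coding RNA (lincRNA) genes were followed in the shell gland of layers and non-layers. They are the 27 genes given the biotype lincRNA in the authors' deposited table of differentially expressed genes, which holds 616 genes, 587 of them protein coding. The paper describes its transcripts, annotated or not, as all protein coding, which differs from this biotype. Whether the 27 genes code for protein was not tested. The count table of the series holds 19152 genes, and the biotype is at hand only for the genes of the authors' table. That table holds only genes the authors had selected for a difference between layers and non-layers in these same 6 libraries, so the 27 genes are not the lincRNA genes of the chicken at large, and a difference between the groups in any of them is a description and not independent support. None of the 27 has a gene name in the files, and they are called by their Ensembl identifiers.

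The uteri came from Hy-line hens, 3 layers of 35 weeks and 3 non-layers of 35 to 60 weeks, with 1 library per hen. The layers were killed at 15 to 20 h post-ovulation, when an egg lay in the uterus, and the non-layers were hens without growing follicles in the ovary. Age and laying status cannot be told apart where a non-layer was older. RNA was taken from unsorted pieces of uterus, so that a change in the RNA of a cell and a change in the number of cells that hold it cannot be told apart either.

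A lincRNA is a long transcript from DNA between protein-coding genes that has no long open reading frame. Many are spliced and carry a poly-A tail like an mRNA, and they are often low in abundance and restricted to few tissues. A small number are known to regulate chromatin, transcription or RNA stability, in some cases of a gene next to them, and most have no known function. The libraries were made from poly-A RNA, and lincRNA without a poly-A tail would be missed. The uterus, or shell gland, is the part of the oviduct where the eggshell is laid down on the egg. Sequences of the lincRNA genes were not analysed here.

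The gene counts summed to between 16749854 and 20333103 in layers and between 14756666 and 18676937 in non-layers. Expression is given as CPM, the count of a gene scaled to library size with TMM factors, which correct for the composition of a library. Where genes are set side by side, the deposited RPKM is given, which divides by gene length and by library total without TMM factors. These factors were between 0.859 and 0.934 in layers and between 1.087 and 1.178 in non-layers. RPKM values are therefore lower in layers, relative to non-layers, than CPM values. Over all genes tested, the median RPKM was 11.91 in layers and 15.04 in non-layers. The log2 ratio or log2 fold change is that of layers over non-layers from edgeR, with its standard error (SE). Of the marker lists used to describe the tissue, the authors' table names 6 of 9 genes of the shell gland, all higher in layers and 4 of them called, with a summed level between 54690 and 65817 CPM in layers and between 212.2 and 518.0 CPM in non-layers. It names all 10 genes of proliferating cells, lower in layers for all 10 and called for 9, with a summed level between 28.1 and 37.9 CPM in layers and between 147.1 and 719.0 CPM in non-layers, where non-layer 3 had the least of the non-layers. It names OVST and LYZ of 5 egg white gland genes, both called as higher, at a sum between 106.1 and 329.7 CPM in layers and between 22.8 and 44.8 CPM in non-layers. It names 1 of 5 red blood cell genes, HBBA, between 58.3 and 386.5 CPM in layers and between 44.1 and 54.3 CPM in non-layers, and 1 of 7 genes of ciliated cells, TEKT1, between 31.1 and 69.4 CPM in layers and between 112.4 and 123.4 CPM in non-layers, neither of them called. It names 0 of 7 genes of immune cells and 0 of 5 of smooth muscle. A marker is named there only where the authors had selected it for a difference between the groups. Nothing is therefore read from the directions and calls of these markers, beside 1.87% of all genes tested that were called. The part of the cells of these lists in the levels of the lincRNA genes was not tested.

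Most lincRNA genes were low in level, and 2 of the 27 had a mean of at least 100 CPM. Over the 27 genes, the mean level of a gene had a median of 3.86 CPM, and 19 genes lay under 10 CPM. The median lincRNA level was between 1.45 and 2.88 RPKM in the 3 layers and between 2.45 and 4.10 RPKM in the 3 non-layers. For the 587 protein-coding genes of the same table, the median was between 3.32 and 3.998 RPKM in layers and between 5.52 and 8.59 RPKM in non-layers. The median of the lincRNA genes was thus the lower of both in each of the 6 libraries, by description and without a test, as both sets were selected.

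ENSGALG00000044735 (chromosome 20 of Galgal 5.0, 10677567 to 10679829, minus strand) was the lincRNA gene with the highest level, and ranked 7 among the 19152 genes by mean CPM. It was at 10316, 12601 and 15440 CPM in layers 1, 2 and 3, and at 2231, 1532 and 5217 CPM in non-layers 1, 2 and 3. Every layer lay above every non-layer, and non-layer 3 held more than the other non-layers. Layers averaged 12785 ± 2567 CPM and non-layers 2994 ± 1957 CPM (SD, n = 3 each), giving a log2 ratio of 2.09 ± 0.47 (SE). The adjusted p was 0.070 from edgeR's quasi-likelihood test, so that the gene was not called. Without non-layer 3 its log2 fold change was 2.76 with an adjusted p of 0.012, past the threshold, whereas with any other library left out it was not called. The remaining 26 lincRNA genes had mean levels of up to 304 CPM.

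ENSGALG00000040355 (chromosome 2, 115687085 to 115692586, minus strand) came next in level and had the largest rise. It was at 384, 809 and 527 CPM in layers, against 31.8, 36.3 and 33.0 CPM in non-layers. The non-layers lay close together and far under the lowest layer. Layers averaged 573.4 ± 215.9 CPM and non-layers 33.7 ± 2.33 CPM (SD, n = 3 each), giving a log2 ratio of 4.09 ± 0.31 (SE; edgeR adjusted p = 0.012). ENSGALG00000041998 (chromosome 17, 5401238 to 5402938, plus strand) was at 35.1, 52.0 and 38.3 CPM in layers, against 15.9, 16.4 and 17.4 CPM in non-layers, and rose by 1.33 on the log2 scale (SE 0.20, edgeR adjusted p = 0.033). Scaled by library size only, without TMM factors, its log2 fold change was 0.987, under 2-fold, and it was not called. ENSGALG00000030751 (chromosome 15, 2634713 to 2636326, plus strand) was at 18.1, 36.8 and 20.6 CPM in layers, against 8.84, 8.23 and 8.60 CPM in non-layers. Its groups did not overlap, and its log2 fold change of 1.55 (standard error 0.30) just missed the threshold, with an adjusted p of 0.051 by edgeR.

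**Figure D1:**
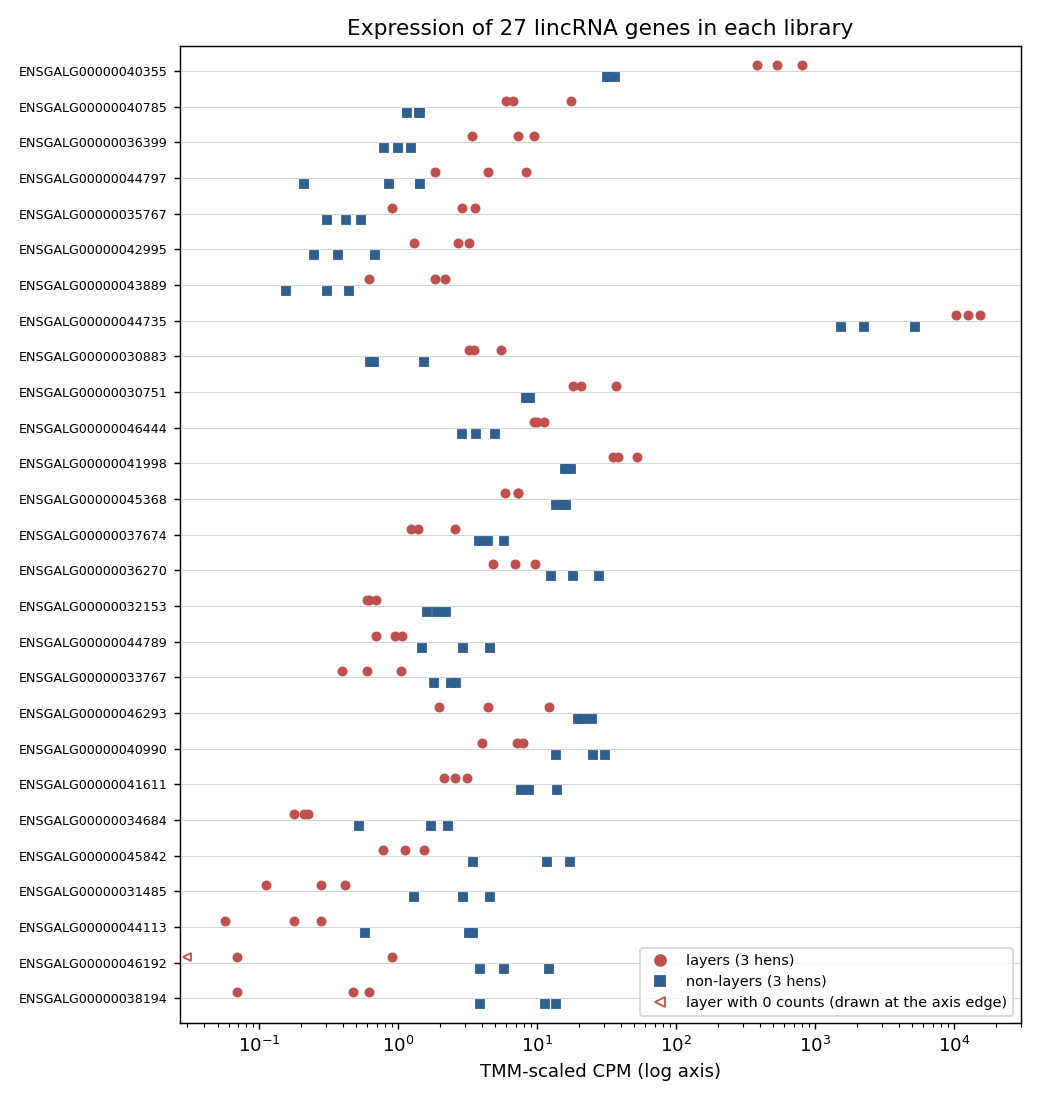
TMM-scaled CPM (horizontal log axis) of each of the 27 lincRNA genes (rows, ordered by fold change) in 3 layers (circles) and 3 non-layers (squares), where the open triangle is a layer with 0 counts. In each row the circles and squares occupy separate ranges, and ENSGALG00000044735 lies far to the right of the other genes with 1532 to 15440 CPM.

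In all, 12 lincRNA genes had a higher and 15 a lower mean in layers, and for all 27 the 3 layers lay on one side of the 3 non-layers. The filter on low counts left 26 of them, and the groups did not overlap for these 26, beside 27.2% of all 13317 genes tested. A call required an adjusted p below 0.05 together with a change of 2-fold or more, the thresholds of the paper. By edgeR, 7 of the 26 were called, beside 1.87% of all genes tested. Of these, 4 rose, beside 0.901% of all genes, and 3 fell, beside 0.969%. As the authors' table was selected on the same contrast, nothing is read from these counts against the background. Of the 584 protein-coding genes of the table that were tested, 223 were called. DESeq2's Wald test called all 27 lincRNA genes, beside 6.73% of the genes to which it gave an adjusted p. The paper had selected its genes with DESeq2 on the same libraries, so this count repeats the selection.

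The calls changed when single libraries were left out, over all genes as well as among lincRNA genes. A fit without a library also has fewer hens, and the part of this in the lost calls was not tested. Dropping layer 3 gave 7 called lincRNA genes, of which 4 were among the 7 above, beside 2.02% of all genes tested. Dropping non-layer 3 gave 8, of which 2 were among the 7, beside 2.03% of all genes. Dropping layer 1 gave 1 beside 41 called genes of 13533, and dropping layer 2 gave 1 beside 2 of 13602. Dropping non-layer 1 gave 0 lincRNA genes and 0 genes in all, and dropping non-layer 2 gave 0 lincRNA genes and 1 gene in all, so that nearly nothing was called in these fits. An unadjusted p under 0.05 was found for all 27 lincRNA genes in both of these fits, beside 12.6% of all genes without non-layer 1 and 15.3% without non-layer 2, and as the lincRNA genes were selected on these libraries nothing is read from that count. The lincRNA gene called without layer 1 and without layer 2 was ENSGALG00000040355. Its log2 fold change was between 3.75 and 4.31 when single libraries were dropped, while its adjusted p reached 0.11.

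**Figure D2:**
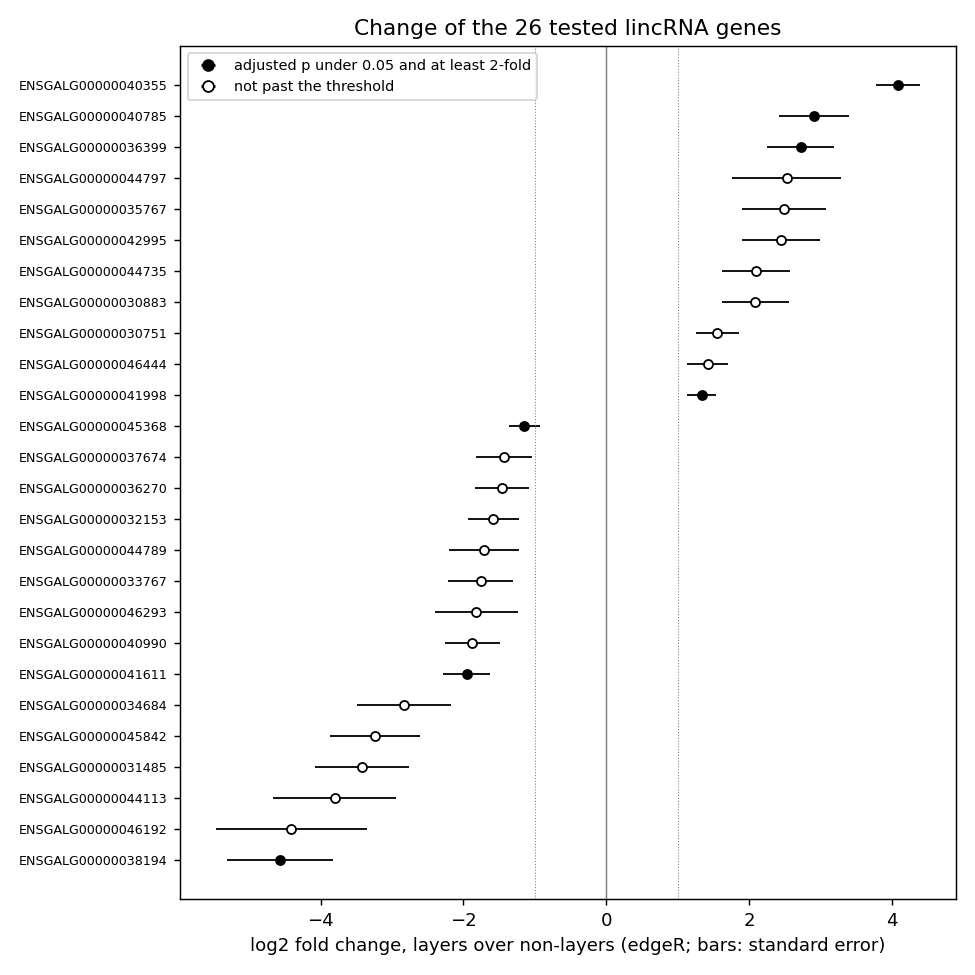
Log2 fold change of layers over non-layers (horizontal axis; edgeR, bars give the standard error) for the 26 lincRNA genes tested, filled where the gene was called. The 4 filled points on the right and 3 on the left are the called genes, from 4.09 for ENSGALG00000040355 to -4.57 for ENSGALG00000038194.

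The other genes that rose were lower in level. ENSGALG00000040785 (chromosome 4, 68878951 to 68881771, minus strand) was at 5.93, 17.4 and 6.74 CPM in layers, against 1.40, 1.43 and 1.15 CPM in non-layers, giving a log2 ratio of 2.91 ± 0.49 (SE; edgeR adjusted p = 0.037). Layer 2 was well above the other layers, and the lowest layer was still above the highest non-layer. ENSGALG00000036399 (chromosome 9, 8389841 to 8394431, minus strand) was at 7.23, 9.52 and 3.37 CPM in layers, against 0.793, 1.23 and 0.991 CPM in non-layers, giving a log2 ratio of 2.72 ± 0.46 (SE; edgeR adjusted p = 0.037). Layer 2 was the highest layer for 10 of the 12 lincRNA genes with a higher mean in layers, and layer 3 for the other 2. Among the 264 protein-coding genes of the table with a higher mean in layers, layer 2 was the highest layer for 44.3%, and among all genes tested for 28.2%.

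A further 5 lincRNA genes with a higher mean in layers had few counts and were not called, or were not tested. ENSGALG00000035767 (chromosome 8, 27548287 to 27568031, plus strand) had 48, 51 and 16 counts in layers, against 5, 11 and 8 in non-layers, giving a log2 ratio of 2.49 (edgeR adjusted p = 0.080). ENSGALG00000042995 (chromosome 26, 2213979 to 2216281, minus strand) had fractional counts of 44.6, 45.7 and 22.9 in layers, against 6.32, 4.78 and 12.7 in non-layers, giving a log2 ratio of 2.45 (edgeR adjusted p = 0.070). Of the lincRNA genes only this one and ENSGALG00000045368 had fractional counts, and the cause was not tested. ENSGALG00000030883 on chromosome 9 had 54, 50 and 97 counts in layers, against 11, 31 and 12 in non-layers (log2 ratio 2.09, edgeR adjusted p = 0.070).

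ENSGALG00000044797 and ENSGALG00000043889 lie on the Z chromosome on opposite strands, from 53184240 to 53185549 (plus) and from 53184847 to 53191016 (minus), and their gene bodies share 703 bases. ENSGALG00000044797 had 75, 119 and 33 counts in layers, against 14, 29 and 4 in non-layers, and was not called (log2 ratio 2.53 ± 0.76 SE, edgeR adjusted p = 0.13). ENSGALG00000043889 had 31, 31 and 11 counts in layers, against 5, 9 and 3 in non-layers, and was the lincRNA gene that did not pass the filter on low counts. Both were highest in layer 2, the second of them by CPM, and lowest in non-layer 3. The counts of ENSGALG00000043889 were between 26.1% and 41.3% of those of ENSGALG00000044797 in layers and between 31.0% and 75.0% in non-layers. The library kit marks the strand of a read, but the strand setting of the counting is not given in the sources used here, and reads of this pair counted on the other gene were not tested.

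ENSGALG00000046444 on chromosome 18 was the most even of the higher genes among layers. It had 161, 160 and 178 counts in layers, against 59, 58 and 95 counts in non-layers, giving a log2 ratio of 1.42 ± 0.29 (SE; edgeR adjusted p = 0.054).

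Among the lincRNA genes with a lower mean in layers, 3 were called. ENSGALG00000038194 (chromosome 20, 10247810 to 10248888, plus strand), downstream of TPX2, had 8, 1 and 11 counts in layers, against 186, 277 and 74 counts in non-layers. The lowest non-layer, non-layer 3, held several times the counts of the highest layer. Its log2 ratio was -4.57 ± 0.74 (SE; edgeR adjusted p = 0.035), and when single libraries were dropped it was between -5.05 and -4.13 while its adjusted p reached 0.17 by edgeR. ENSGALG00000041611 (chromosome 23, 203466 to 205360, minus strand) was at 2.55, 3.13 and 2.14 CPM in layers, against 8.72, 7.69 and 13.9 CPM in non-layers, with non-layer 3 the highest non-layer. It fell by 1.96 on the log2 scale (SE 0.34, edgeR adjusted p = 0.037). ENSGALG00000045368 (chromosome 7, 29935570 to 30258813, minus strand) has the most exon bases of the 27 genes, 8596, and the smallest change. It was at 7.23, 7.23 and 5.84 CPM in layers, against 15.4, 13.6 and 16.1 CPM in non-layers, and fell by 1.15 on the log2 scale (SE 0.22, edgeR adjusted p = 0.048). It is the called gene closest to the threshold, and ENSGALG00000045842 and ENSGALG00000031485, each with an adjusted p of 0.051, lie just outside.

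ENSGALG00000045842 (chromosome 22) was at 0.771, 1.53 and 1.12 CPM in layers, against 11.8, 17.1 and 3.44 CPM in non-layers, giving a log2 ratio of -3.24 ± 0.62 (SE). ENSGALG00000031485 (chromosome 9) had 7, 4 and 2 counts in layers, against 75, 59 and 25 in non-layers, giving a log2 ratio of -3.42 ± 0.66 (SE). ENSGALG00000044113 (chromosome 1) had 3, 4 and 1 counts in layers, against 56, 66 and 11 in non-layers, giving a log2 ratio of -3.81 (edgeR adjusted p = 0.070). Of these genes the lowest non-layer was again non-layer 3. ENSGALG00000034684 (chromosome 3) had 3, 3 and 4 counts in layers, against 37, 35 and 10 in non-layers, where non-layer 3 also held the minimum (log2 ratio -2.83, edgeR adjusted p = 0.073).

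Among non-layers, the minimum fell on non-layer 3 for 8 of the 15 lincRNA genes with a lower mean in layers and the maximum for 4 of them. Among the 323 protein-coding genes of the table with a lower mean in layers it held the minimum for 71.2%, and among all genes tested for 41.9%. The summed proliferation markers were lowest in the same hen, and their part in these lincRNA genes was not tested.

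ENSGALG00000046192 on the Z chromosome ran the other way. It had 0, 1 and 16 counts in layers, against 94, 79 and 233 counts in non-layers, and was highest in non-layer 3 and, among layers, in layer 3. A count of 0 in layer 1 allows up to 3 counts, or 0.178 CPM. Its fitted log2 fold change of -4.41 (SE 1.06, edgeR adjusted p = 0.082) rests on 2 layers near 0 and moved between -7.52 and -3.82 when single libraries were dropped. ENSGALG00000040990 on chromosome 3 was also highest in non-layer 3, at 30.9 CPM, against 25.3 and 13.6 CPM in the other non-layers, while its layers were at 4.03, 7.86 and 7.14 CPM. It was not called (log2 ratio -1.88, edgeR adjusted p = 0.055).

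The widest spread within layers of a gene with a mean above 1 CPM there was that of ENSGALG00000046293 (chromosome 5), at 4.45, 1.95 and 12.2 CPM in layers, against an even 24.8, 19.7 and 21.4 CPM in non-layers. Its adjusted p, 0.15 by edgeR, was the highest of all lincRNA genes tested. The shortest gene by exon bases, ENSGALG00000032153 (chromosome 2, 100455008 to 100455520, 458 exon bases), had in contrast little spread, with 10, 10 and 11 counts in layers, against 31, 45 and 31 in non-layers (log2 ratio -1.58 ± 0.36 SE, edgeR adjusted p = 0.070). The remaining 4 genes, ENSGALG00000037674 (chromosome 5), ENSGALG00000036270 (chromosome 19), ENSGALG00000044789 (chromosome Z) and ENSGALG00000033767 (chromosome 9), had log2 fold changes of -1.43, -1.47, -1.71 and -1.76, and none was called, with adjusted p-values between 0.096 and 0.12 by edgeR.

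Over the 27 lincRNA genes, the median coefficient of variation of CPM was 40.4% among layers and 38.0% among non-layers. It was 34.4% and 31.1% over the protein-coding genes of the table, and 23.1% and 15.2% over all genes tested. The lincRNA genes also had fewer counts, with a median mean level of 3.86 CPM beside 13.35 CPM for the protein-coding genes of the table and 25.7 CPM for all genes tested, and the part of counting noise in the wider spread was not tested.

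The lincRNA genes lay on 17 chromosomes, 12 of them on the plus strand. Their exon length was between 458 and 8596 bases with a median of 1163, beside a median of 2035 for the protein-coding genes of the table. A single transcript was annotated for 20 genes, 2 transcripts for 6, and 3 for ENSGALG00000045368. The authors' table marks 7 of the 27 as confounded, against 106 of the 587 protein-coding genes, without a definition in the sources used here. The 7 are both genes of the antisense pair, the called ENSGALG00000045368, ENSGALG00000035767, ENSGALG00000042995, ENSGALG00000036270 and ENSGALG00000040990.

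For the 20 genes with 1 transcript, the length that follows from the deposited counts and RPKM values equalled the exon length of the table within 0.183% in every library that had counts. For the 7 genes with several transcripts it was shorter, between 42.5% and 91.2% of the exon length, and for some it varied from hen to hen. For ENSGALG00000030883 it was 1337, 1110 and 1207 bases in layers, against 881.6, 1066 and 916.5 bases in non-layers, so that the groups did not overlap. The RPKM values of this gene therefore divide by a longer length in layers. The lengths in non-layers rest on 11, 31 and 12 counts, and the part of counting error was not tested. The mean of ENSGALG00000030883 was 2.96 RPKM in layers and 1.07 RPKM in non-layers, while its counts gave a fold change of 4.25 by edgeR. The edgeR value also includes the TMM factors, which the RPKM values lack, so length is not the only difference between these measures. The part of each was not tested. Which measure is nearer to the change in transcript number was not tested. For ENSGALG00000045368 the implied length was 5155, 4430 and 3867 bases in layers, against 4028, 4570 and 3657 bases in non-layers, and the groups overlapped. For ENSGALG00000044735 it was between 800.8 and 811.3 bases in all 6 libraries.

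**Figure D3:**
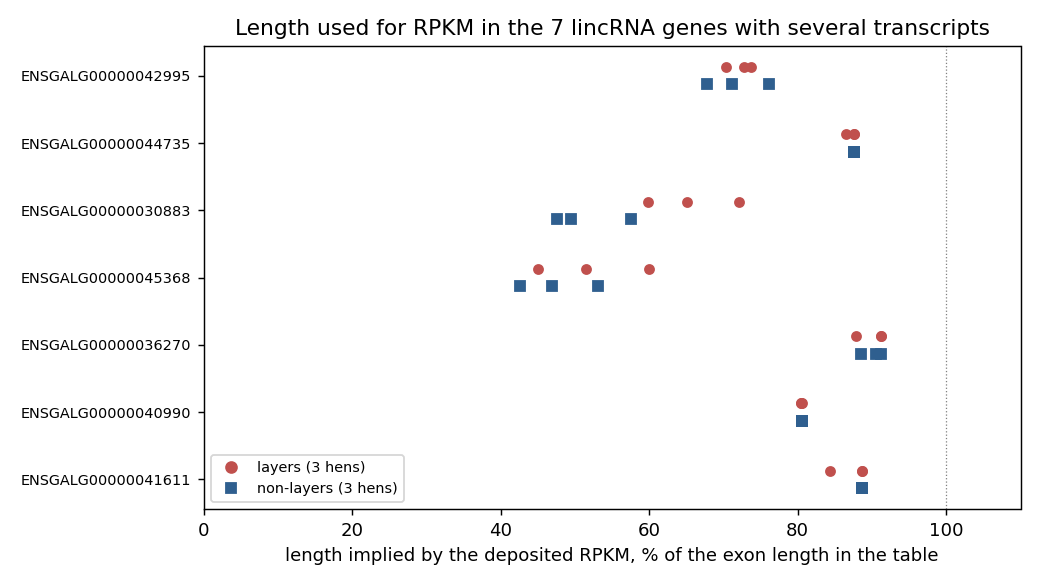
Length implied by the deposited RPKM values, as a percentage of the exon length in the authors' table (horizontal axis), for the 7 lincRNA genes with several transcripts, in 3 layers (circles) and 3 non-layers (squares). The groups occupy separate ranges for ENSGALG00000030883, where the layers lie to the right, and touch or overlap for the other genes.

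The nearest protein-coding gene of the same table was looked up for each lincRNA gene by the gap between gene bodies. Genes that the authors did not select are missing from this search, so a nearer gene can lie between. The gap had a median of 165.6 kb and ran from 85 bases to 3978 kb, and no lincRNA gene overlapped such a gene. The gap was at most 10 kb for 10 of the 27 lincRNA genes, or 37.0%, beside 85 of 586 protein-coding genes of the table with another such gene on their chromosome, or 14.5%. The close neighbours were uneven by direction: 9 of the 12 lincRNA genes with a higher mean in layers had one, but 1 of the 15 with a lower mean. For protein-coding genes the shares were 19.7% of those higher and 10.2% of those lower in layers. These shares are a description, since each gene of the table was selected for its own difference.

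All 10 close pairs differed between layers and non-layers in the same direction. Among the 85 protein-coding genes with a close neighbour, 72 shared its direction. Beyond 10 kb, 10 of 17 lincRNA genes and 57.5% of protein-coding genes shared the direction of their neighbour. In 7 of the 10 pairs both genes lay on the same strand, and in all 7 the lincRNA gene began after the end of the protein-coding gene. Of the 85 protein-coding genes with a close neighbour, 54 lay on the same strand as that neighbour, and 28 of these on its 3′ side. Coding genes can be each other's neighbour, so that a pair can be counted from both sides. Reads from an extended 3′ end of the coding gene counted on the lincRNA gene were not tested, as only gene totals are used here.

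**Figure D4:**
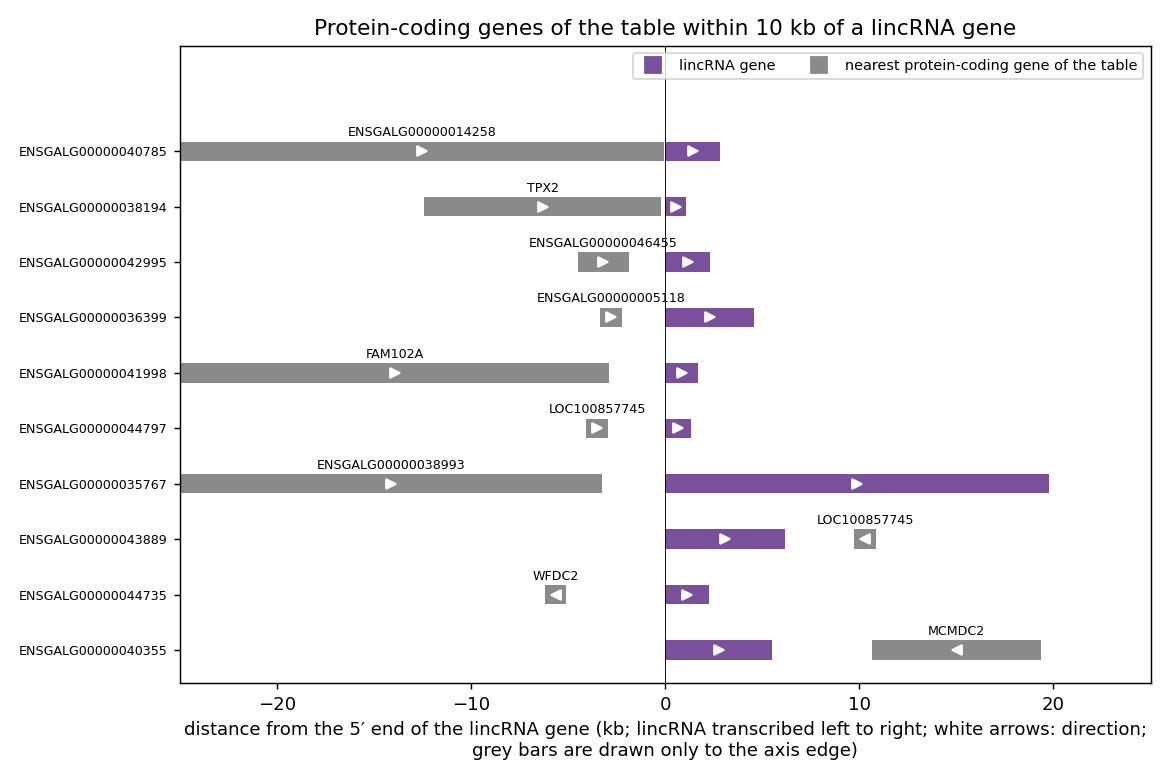
Position of the 10 lincRNA genes (purple) with a protein-coding gene of the table (grey) within 10 kb, in kb from the 5′ end of the lincRNA gene, with transcription of the lincRNA from left to right and white arrows for the direction of each gene. The upper 7 pairs run in the same direction with the coding gene on the left, with gaps from 85 to 3262 bases, and the lower 3 pairs run in opposite directions.

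The smallest gap, 85 bases, was that between ENSGALG00000040785 and the end of ENSGALG00000014258, a protein-coding gene without a name. The coding gene was at 71.1, 185 and 53.6 CPM in layers, against 17.1, 16.2 and 17.8 CPM in non-layers, and rose by 2.60 on the log2 scale (SE 0.46, edgeR adjusted p = 0.041). Both genes were highest in layer 2. Per length, the lincRNA level was 34.7%, 39.3% and 52.6% of the coding gene's RPKM in layers, against 34.4%, 36.7% and 26.6% in non-layers, and these ranges overlapped.

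ENSGALG00000038194 starts 215 bases after the end of TPX2, which encodes a factor of spindle microtubule nucleation. TPX2 was at 2.85, 2.36 and 2.53 CPM in layers, against 56.8, 77.9 and 15.9 CPM in non-layers, giving a log2 ratio of -4.28 ± 0.59 (SE; edgeR adjusted p = 0.030), and the 3 non-layers stood in the same order for both genes. The RPKM of the lincRNA gene was 49.5%, 8.87% and 61.9% of that of TPX2 in layers, where layer 2 rests on a single count, against 58.5%, 52.6% and 68.0% in non-layers.

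ENSGALG00000036399 lies 2253 bases after ENSGALG00000005118, a protein-coding gene without a name, which was at 9.37, 13.8 and 17.6 CPM in layers, against 1.77, 2.27 and 1.62 CPM in non-layers (log2 ratio 2.85, edgeR adjusted p = 0.026). Layer 3 was the highest layer for the coding gene and the lowest for the lincRNA gene. ENSGALG00000042995 lies 1881 bases after ENSGALG00000046455, also without a name, which was at 33.8, 22.4 and 10.7 CPM in layers, against 3.35, 5.42 and 3.49 CPM in non-layers (log2 ratio 2.44, edgeR adjusted p = 0.047). The lincRNA level was between 9.40% and 16.9% of its RPKM in layers and between 5.61% and 21.9% in non-layers.

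ENSGALG00000041998 lies 2912 bases after FAM102A. FAM102A was at 60.8, 71.1 and 27.1 CPM in layers, against 15.1, 17.4 and 18.6 CPM in non-layers, and was not called (log2 ratio 1.63, edgeR adjusted p = 0.059). The lincRNA gene varied less among layers than FAM102A, and its RPKM was between 107% and 254% of that of FAM102A in layers and between 176% and 192% in non-layers. ENSGALG00000035767 lies 3262 bases after ENSGALG00000038993, a gene without a name at 104, 137 and 31.1 CPM in layers, against 24.7, 27.1 and 25.5 CPM in non-layers (log2 ratio 1.81, edgeR adjusted p = 0.10). The lincRNA RPKM was 5.35%, 5.07% and 5.66% of that of the coding gene in layers, against 2.43%, 3.91% and 3.21% in non-layers, so that these ratios did not overlap between the groups. The non-layer ratios rest on 5, 11 and 8 counts of the lincRNA gene, and the part of counting error was not tested.

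ENSGALG00000044797 and ENSGALG00000043889 share LOC100857745 as their close neighbour, so that the 10 pairs hold 9 coding genes. LOC100857745 had 33, 35 and 25 counts in layers, against 12, 11 and 10 in non-layers (log2 ratio 1.68, edgeR adjusted p = 0.079). The gap was 2942 bases for ENSGALG00000044797, on the same strand, and 3549 bases for ENSGALG00000043889, on the opposite strand.

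In the other 2 pairs the genes lay on opposite strands as well, and the lincRNA gene was the far more abundant one. ENSGALG00000044735 and WFDC2, which encodes a small secreted protein of the whey acidic protein family, are transcribed away from each other with 5107 bases between them. WFDC2 was at 38.4, 61.0 and 173 CPM in layers, against 22.9, 20.9 and 25.3 CPM in non-layers (log2 ratio 1.98, edgeR adjusted p = 0.10), and both genes were highest in layer 3 and non-layer 3. WFDC2 had, averaged over the 6 libraries, 1.55% of the RPKM of the lincRNA gene. ENSGALG00000040355 and MCMDC2, a relative of the replication helicase subunits known from meiosis in mice, are transcribed towards each other with 5156 bases between them. MCMDC2 had 79, 51 and 60 counts in layers, against 8, 9 and 13 in non-layers, and rose by 2.83 on the log2 scale (SE 0.37, edgeR adjusted p = 0.029). Its mean RPKM was 0.622% of that of ENSGALG00000040355, and the lincRNA gene was highest in layer 2 while MCMDC2 was highest in layer 1. The RPKM of the lincRNA gene was between 9883% and 27460% of that of MCMDC2 in layers. In non-layers it was between 5853% and 9844%, so that these ratios came close but did not overlap either. Apart from this pair and that of ENSGALG00000035767, the ratios of all close pairs overlapped between the groups.

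Beyond 10 kb, the next neighbours were OSTN and DIAPH3. OSTN, which encodes the secreted peptide osteocrin, lies 13.6 kb from ENSGALG00000033767 on the same strand and differed in the opposite direction. OSTN was at 14.7, 9.87 and 12.2 CPM in layers, against 2.07, 3.35 and 1.88 CPM in non-layers, and rose by 2.33 on the log2 scale (edgeR adjusted p = 0.033), whereas ENSGALG00000033767 was at 0.593, 1.04 and 0.393 CPM in layers, against 2.62, 1.82 and 2.40 CPM in non-layers. DIAPH3, a formin that assembles actin filaments, ends 30.8 kb before ENSGALG00000044113. DIAPH3 had 4, 3 and 0 counts in layers, against 71, 109 and 22 in non-layers, with non-layer 3 the lowest non-layer as for the lincRNA gene. The other 15 lincRNA genes had their nearest neighbour between 161.2 kb and 3978 kb away, among them KPNA2, MCM6, NDC80 and STMN1, and 9 of these 15 shared its direction.

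**Figure D5:**
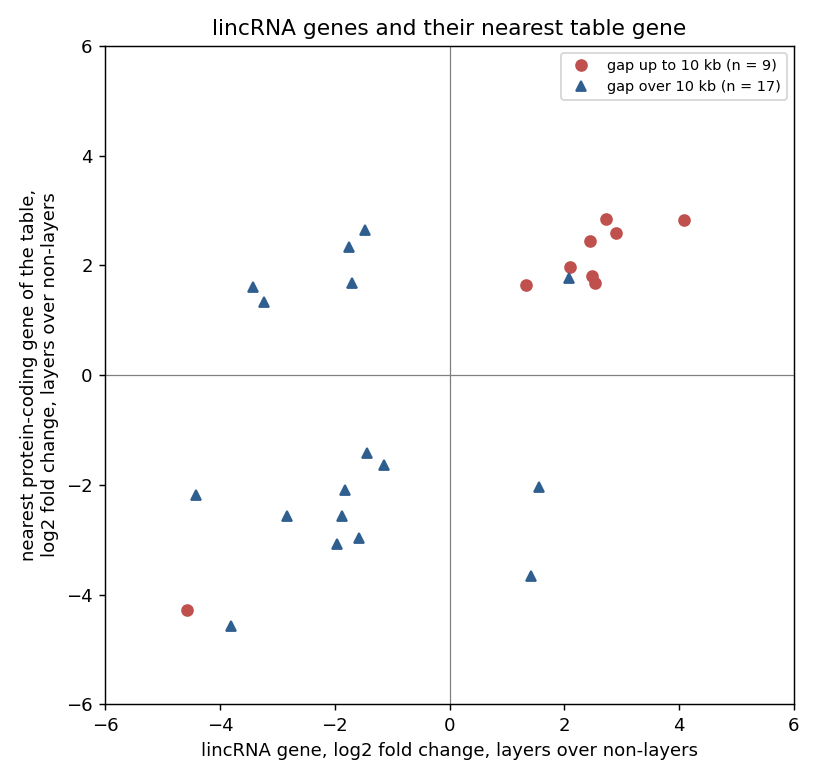
Log2 fold change of layers over non-layers for each of the 26 lincRNA genes tested (horizontal axis) and for its nearest protein-coding gene of the authors' table (vertical axis), with gaps of up to 10 kb as circles (n = 9) and larger gaps as triangles (n = 17). All 9 circles lie in the upper right or lower left, whereas the triangles also fill the upper left and lower right.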

How the data were processed

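RNA of 6 uteri was sequenced as single-end reads. Reads were trimmed by Prinseq and mapped by Array Studio against the Galgal 5.0 build, and the authors' gene table holds estimated counts that were not normalized, of which 91.62% were whole (within 1e-06). The counter, its strand setting and the annotation release are not given in the sources used here. The authors also deposited RPKM values and a table of the genes they called, whose annotation columns were used. Its fold changes, p-values, q-values and group means were not.

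lincRNA genes were the rows of that table with this biotype. Members and lists were chosen with earlier results of these data known. Counts were rounded and compared over all genes with edgeR 4.0.16 in R 4.3.3 (TMM, filterByExpr, quasi-likelihood test, Benjamini-Hochberg adjustment, all 6 libraries, no covariates). Standard errors are the log2 fold change over the square root of F. The script was tested on simulated data. Values in every library are given for lincRNA genes that were called, the 4 highest by mean CPM, the longest and shortest, those within 10 kb of a protein-coding gene of the table and those that failed the filter, and for others chosen after their values were seen. DESeq2 1.42.0, limma 3.58.1 on RPKM, other scalings and filters, a replicate block and leaving out each library were alternatives. Of these, DESeq2 is also the method by which the authors selected their table.

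Libraries of a group differed by a chi-square per gene of 13.4 to 155.1, so none was a duplicate. With 3 hens per group an exact permutation test cannot go below 0.1. Counting limits cover counting error only. The reference table of gene names (assembly GRCg7b) matched none of the Ensembl identifiers.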

Additional observations from a re-analysis of the deposited data

How the results depend on the processing

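No lincRNA gene and no nearest gene changed direction under any alternative in which it was tested. All of these genes were selected on the same libraries, and the groups did not overlap for any lincRNA gene. A reversal was thus hardly possible, and nothing is read from its absence. Between 7 called lincRNA genes and 27 lie the alternatives' counts as follows: 17 with library size only (4 higher, 13 lower; 5.86% of all genes), 16 with limma on log2(RPKM + 1) (4.81%) and 16 with limma on log2(RPKM + 0.1) (5.27%), and 27 with DESeq2, whereas the replicate block gave 1 (0.158%). The share over all genes was 1.87% in edgeR as reported, so that it moved with the lincRNA calls. The DESeq2 count repeats the authors' selection, which was made with DESeq2 on these libraries. With library size only, the median of all genes moved to -0.33 from 0.01 on the log2 scale. With limma on log2(RPKM + 1) it was -0.30, and without a filter -0.21, where 6 lincRNA genes were called. The part of these shifts in the genes called lower was not tested. The other scalings, the filters on low counts, counts without rounding and limma without a filter gave 6 to 9, beside 1.52% to 1.89% of all genes. The number of lincRNA genes tested was 17 with at least 10 counts in every library and 24 with limma after a filter. It was 26 or 27 in the other settings. The adjusted p alone gave 7, and its share over all genes was not computed. Leaving out each library gave 0 to 8 called lincRNA genes, beside 0% to 2.03% of all genes.

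Of the 25 nearest protein-coding genes, 9 were called, beside 1.87% of all genes tested. With library size only 16 were called (5.86% of all genes), and with DESeq2 25 (6.73%). The replicate block gave 0 (0.158%), when 25 had an unadjusted p under 0.05 by edgeR beside 16.7% of all genes. Leaving out each library gave 0 to 13, beside 0% to 2.03% of all genes. The authors had selected these neighbours with DESeq2 on the same libraries, so nothing is read from these counts. Hens of the groups share only a number: the same-numbered deviations from the group means correlated at -0.147, 0.11 and -0.0665, and the block gave 21 called genes of 13317, against 249 without it. The median lincRNA level was 2.95 RPKM in layers and 4.19 RPKM in non-layers. RPKM was also recomputed from counts, the full exon length and the TMM-scaled library size. The median was then 2.30 RPKM in layers and 2.67 RPKM in non-layers. For the 7 genes with several transcripts, the full exon length is longer than the length implied by the deposited RPKM. The part of length and of scaling in the shift was not tested. Depth limits the genes with few counts, and 17 of the 27 lincRNA genes had at least 10 counts in every library.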
